A study of Homo sapiens with 6 samples.

Results

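The libraries numbered 3 were compared with the libraries numbered 1, with an empty vector and a PTX4 construct on each side. The 4 libraries, EV 1, EV 3, PTX4-OE 1 and PTX4-OE 3, were chosen by the replicate number in the labels, out of 6 in the series, and the 2 libraries numbered 2 were kept out of the fit and set beside it. All were poly(A)-selected RNA of THP-1, a human monocytic leukaemia line, grown in RPMI 1640 with 10% serum and with no other treatment named. EV cells were stably transduced with an empty vector and PTX4-OE cells with a construct that overexpresses PTX4, a secreted pentraxin. The labels call the libraries biological replicates and give all of them the same batch. They do not say whether a number marks a day, a passage or a culture, nor whether the transduced cells were a clone or a pool.

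A culture of dividing leukaemia cells runs on a set of linked gene programmes. Growing cells copy their DNA, build ribosomes and make proteins, and they draw on glycolysis, respiration and chaperones to do so. Cells that slow down switch on stress-sparing regulators such as FOXO targets and glucocorticoid-responsive genes. Interferon-stimulated genes form a separate antiviral programme that monocytic cells keep at a basal level.

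Number 3 differed from number 1 across a large share of the genes tested, and the difference ran the same way in both constructs. Genes of DNA replication, ribosome biogenesis, respiration, the proteasome, chaperones and the interferon response were lower in number 3, and quiescence regulators and many long noncoding RNAs were higher. Of 18130 genes tested, 4488 were called higher in number 3, which is 24.8% of those tested, and 5072 were called lower, which is 28%. A call needed an adjusted p under 0.05 in edgeR's quasi-likelihood test with Benjamini-Hochberg adjustment. Over all expression levels, 1730 of the genes called higher and 361 of those called lower differed by more than 2-fold. Many of these had low counts. Of 11360 genes with a mean of at least 5 CPM (counts scaled to library size), PTX4 left out, 439 differed by more than 1 on the log2 scale in EV. In PTX4-OE 647 did so, and 349 did so in both with the same sign. Whether larger changes were more often upward at that level was not tested. The median log2 fold change over all genes tested was 0.026, with an interquartile range of -0.32 to 0.49. With 2 libraries a side and construct as a covariate the fit had 1 residual degree of freedom. The p-values therefore rest on how far the 2 constructs differ in the change between numbers, moderated across genes. They do not measure a spread among libraries of the same construct and number, since there was 1 of each. Number 3 against number 1 is 1 of 3 contrasts of numbers and was chosen with earlier results known.

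Total expected counts ran from 29670641 to 37718207 per library. The genome of the mitochondrion held 2.79% of counts in PTX4-OE 1 and 4.75% to 5.91% in the other libraries. The number of genes with a count was 25602 in EV 1, 25774 in EV 2 and 27276 in EV 3. It was 25329, 26469 and 27811 in PTX4-OE 1, 2 and 3, so both number 3 libraries held the most detected genes. PTX4 was at 0, 0.103 and 0.118 CPM in EV 1, 2 and 3 and at 687, 463 and 402 CPM in PTX4-OE 1, 2 and 3, which matches the labels. CPM, here and below, are counts scaled to library size, with TMM factors over all 6 libraries. The summed levels of markers in this paragraph are the exception and were scaled to library size without TMM factors. Of 14 THP-1 markers 1 was under 1 CPM in all libraries, and CD4 was at 0 to 0.07 TPM. SPI1, the master factor of myeloid cells, was at 253 to 287 TPM across the 6 libraries. The summed level of 14 such markers was 634 to 646 CPM in number 1 and 583 to 603 CPM in number 3. Of 13 of these markers tested, 6 were called lower and 2 higher, with a median log2 fold change of -0.32. PTPRC, which encodes CD45, was called higher, at 0.54 to 0.80 over the alternatives run. Members called lower included CSF1R, the receptor of a macrophage growth factor, at -0.77 and CD68, a lysosomal protein of macrophages, at -0.56. The count called lower was 3 in a 6-library fit without PTX4-OE 3, in DESeq2 and with log2(TPM + 1). Of the 15 T and NK cell markers 9 had no count in any library, CD3D, CD3E, CD2 and CD8A among them, and the 15 summed to 15.7 to 18.3 CPM in number 1 and 13.3 to 14.9 CPM in number 3. MS4A1, IGHM and IGKC among the 11 B cell markers, HBB and PF4 among the 16 erythroid and megakaryocyte markers, and COL1A2, COL3A1, DCN and EPCAM among the 16 fibroblast and epithelial markers also had no count. The B cell markers summed to 8.33 to 9.17 CPM in number 1 and 8.81 to 10.2 CPM in number 3. The erythroid and megakaryocyte sum was 19.6 to 21 CPM in number 1 and 23.6 to 24.3 CPM in number 3, and the fibroblast and epithelial sum was 6.66 to 7.38 CPM against 10.1 to 12.1 CPM. The T and NK cell, erythroid and megakaryocyte, and fibroblast and epithelial sums did not overlap between numbers 1 and 3, and the B cell sums did. How often sums of other genes part in this way, with 2 libraries a side, was not tested. Of the T and NK cell markers 11 were under 1 CPM in all libraries, and 8 of the B cell markers were. So were 13 of the erythroid and megakaryocyte markers and 10 of the fibroblast and epithelial markers. The highest member was NKG7, PAX5, EPOR and MUC1 in turn, at up to 10.4, 5.81, 17.5 and 4.38 CPM on the scale of the sums. The part of these markers in the results was not tested.

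The 4 genes that lead the contrast are described first. IFI6, an interferon-induced mitochondrial protein (chromosome 1, 27666064 to 27672212, minus strand, GRCh38, protein coding), was at 105 CPM in EV 1, 53 in EV 2 and 11.5 in EV 3. In PTX4-OE it was at 75, 50.6 and 18.2 CPM. Number 3 was lowest in both constructs, with a log2 fold change of -2.58 (SE 0.169, edgeR quasi-likelihood test, adjusted p = 4.119e-08). In bulk RNA, fewer cells expressing a gene and less RNA of it per cell cannot be told apart, here and in every result that follows. TFRC, the transferrin receptor that brings iron into dividing cells (chromosome 3, 196012511 to 196082153, minus strand), was at 144, 102 and 46.0 CPM in EV 1, 2 and 3 and at 154, 86.7 and 49.3 CPM in PTX4-OE 1, 2 and 3. Its log2 fold change was -1.65 (SE 0.062, adjusted p = 2.294e-09 by the same test), and the 2 constructs gave -1.64 and -1.65 on their own. Of 18 genes of iron uptake, storage and export, 7 were called lower and 4 higher, with a median of -0.17. Over all genes tested, 28% were called lower and 24.8% higher. The count called lower was 3 in a 6-library fit without EV 3, 4 without PTX4-OE 1 and 3 with log2(TPM + 1), and without EV 3 the count called higher was 2. FTL, the ferritin light chain, was at -0.74, and SLC25A37, which carries iron into mitochondria, at 0.98.

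The others of the 4 were higher. TSC22D3, the glucocorticoid-induced leucine zipper (chromosome X, 107713221 to 107777342, minus strand), was at 36.3, 42.9 and 98.1 CPM in EV and 36.0, 56.2 and 93.0 CPM in PTX4-OE, in the order of the numbers. MALAT1, an abundant nuclear noncoding RNA (chromosome 11, 65497640 to 65508073, plus strand), was at 85, 137 and 214 CPM in EV and 49.9, 133 and 204 CPM in PTX4-OE. For both genes the number 3 libraries stood above all others, with no overlap with number 1. The log2 fold change was 1.40 (SE 0.065) for TSC22D3 and 1.68 (SE 0.113) for MALAT1, with edgeR adjusted p of 8.917e-09 and 4.923e-08.

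**Figure D1:**
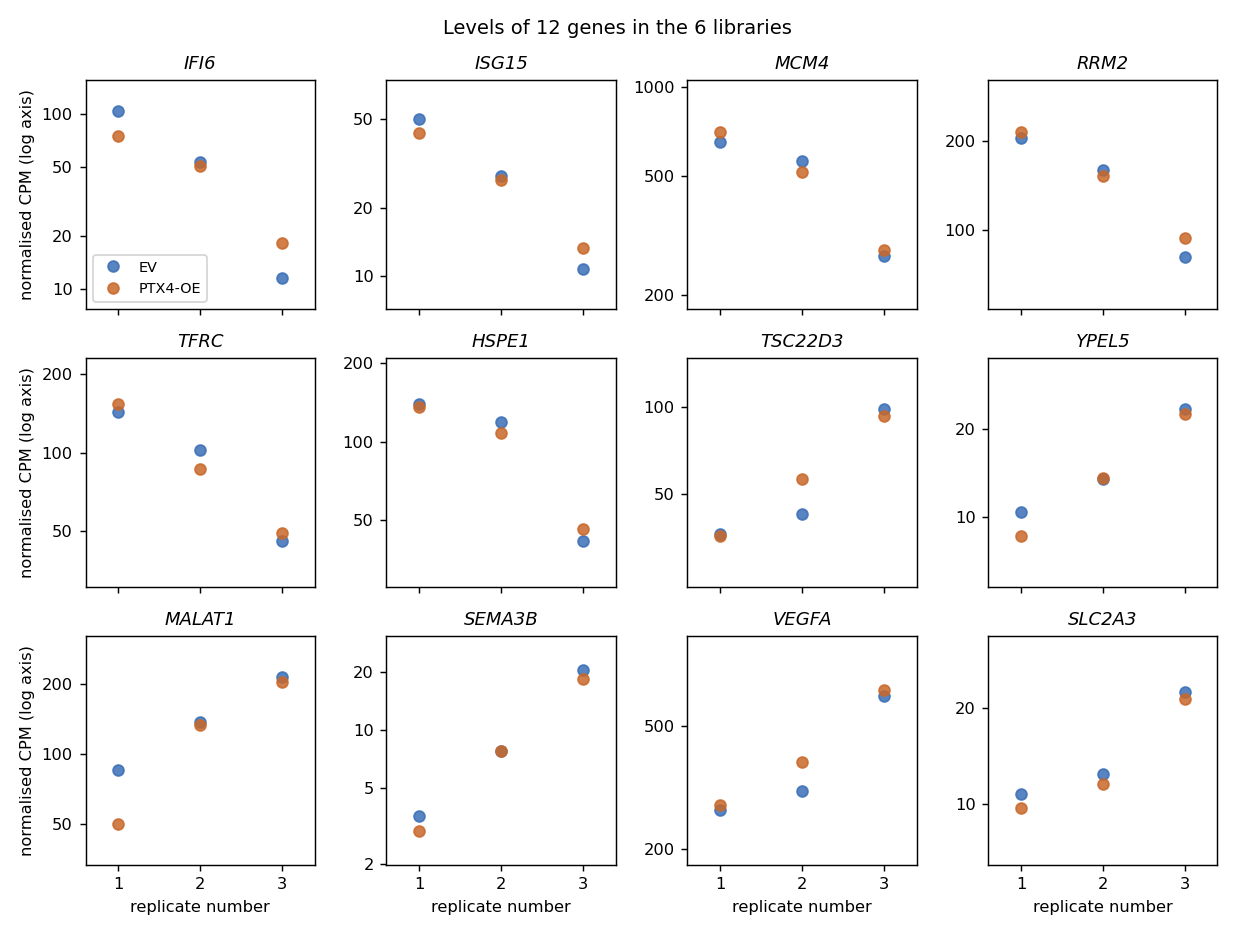
Normalised CPM on a log axis of 12 genes against replicate number, with 1 point per library, blue for EV and orange for PTX4-OE. IFI6, ISG15, MCM4, RRM2, TFRC and HSPE1 are lowest in number 3 and TSC22D3, YPEL5, MALAT1, SEMA3B, VEGFA and SLC2A3 are highest there, with IFI6 falling from 105 to 11.5 in EV and from 75 to 18.2 in PTX4-OE.

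Genes that drive DNA replication and mitosis were lower in number 3 almost without exception. Of 50 tested, 48 were called lower and 1 higher, with a median log2 fold change of -0.94 where the median of all genes was 0.026. MCM4, a subunit of the replicative helicase, was at 654 and 705 CPM in EV 1 and PTX4-OE 1 and at 269 and 282 CPM in EV 3 and PTX4-OE 3. RRM2, the ribonucleotide reductase subunit that supplies deoxynucleotides, went from 204 and 215 CPM to 80.8 and 93.7 CPM in the same libraries. In both genes every number 1 library was more than 2-fold above every number 3 library. The log2 fold changes were -1.30 for MCM4 (SE 0.069) and -1.27 for RRM2 (SE 0.064), both with an edgeR adjusted p of 1.388e-08. CLSPN and CDC6, which act in replication checkpoint signalling and origin licensing, were at -1.26 and -1.23 on the same scale. CDC20, an activator of the anaphase-promoting complex, was at -1.21. The member called higher was CCND2, a D-type cyclin, at 0.67. The origin licensing factor CDT1, at 0.14, did not pass.

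The machinery of growth moved with the cell cycle. Of 46 genes of MYC and ribosome biogenesis, 45 were called lower and 0 higher, with a median log2 fold change of -0.62. NHP2, a core protein of the snoRNPs that modify ribosomal RNA, was at 125 and 146 CPM in number 1 and 61.3 and 56.0 CPM in number 3, and its log2 fold change was -1.21. SRM, the spermidine synthase gene and a MYC target, was at -1.10, and NOP16 and NIP7 at -0.996 and -0.94, the last pair being nucleolar factors of the large ribosomal subunit. MYC itself was at 365 and 394 CPM in EV 1 and PTX4-OE 1 and at 248 and 241 CPM in EV 3 and PTX4-OE 3. Its log2 fold change of -0.63 (SE 0.067) passed with an edgeR adjusted p of 2.296e-06. NPM1, the nucleolar chaperone nucleophosmin, was the member that did not pass, at 0.06.

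Ribosomal protein genes did not follow. Of 79 tested, 20 were called higher and 2 lower, with a median of 0.11. The share called higher is near the 24.8% of all genes tested. The share called lower is far under the 28% of all genes. The count called higher was 1 in a 6-library fit without EV 3, and 39 and 38 without PTX4-OE 1 and PTX4-OE 3, so how many members pass depends on single libraries. RPS26 was the exception at -1.01 and was called under all alternatives run. Its near-identical copies make its counts uncertain.

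Respiration, glycolysis and protein turnover were also lower in number 3. All 62 nuclear genes of the respiratory chain had a negative fold change and 60 were called lower, with a median of -0.58. ATP5MC1, a membrane subunit of the ATP synthase, was at 68.8 and 77.7 CPM in number 1 and at 32.8 and 29.2 CPM in number 3, a log2 fold change of -1.24. UQCRQ, of complex III, was at -1.23, and NDUFS5, of complex I, at -1.09. Of 33 proteasome genes 32 were called lower, with a median of -0.57, led by the core subunits PSMB6 at -1.01 and PSMB2 at -0.95. The member that did not pass was NFE2L1, at 0.01, which encodes a transcription factor of proteasome genes and not a subunit.

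In glycolysis 16 of 22 genes were called lower and 4 higher, with a median of -0.59. PGAM1, phosphoglycerate mutase, was at 609 and 646 CPM in number 1 and at 264 and 271 CPM in number 3, with a log2 fold change of -1.23. The lactate exporter gene SLC16A3 was at -1.05 and the pyruvate kinase gene PKM at -0.95. SLC2A3, a high-affinity glucose transporter, ran the other way: it was at 10.8 and 9.74 CPM in number 1 and 22.3 and 21.3 CPM in number 3, a log2 fold change of 1.09 (SE 0.096, edgeR adjusted p = 4.664e-07). ENO2, ALDOC and HK1, which encode further enzymes of the pathway, were called higher as well, at 1.01, 0.71 and 0.19. In DESeq2, and in a 6-library fit without PTX4-OE 3, 2 members of the list were called higher.

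Transcripts of the mitochondrial genome were not lower. Of 13 mRNAs, 9 were called higher and 0 lower, with a median of 0.51. The median was 0.12 in EV and 0.90 in PTX4-OE, and PTX4-OE 1 was the library with the low mitochondrial share. In a 6-library fit without PTX4-OE 1 the median was 0.081, with 5 called higher and 1 lower, and without EV 1 it was 0.99, so its size rests on which number 1 library is kept.

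Genes of the heat shock response were lower, 15 of 22 called lower and 1 higher, with a median of -0.58. Most encode chaperones of the cytosol, and the list also holds HSPD1 and HSPE1 of the mitochondrion and SERPINH1 of the endoplasmic reticulum. HSPA6, a strictly inducible HSP70, was at 14.2 CPM in EV 1, 2.43 in EV 2 and 1.29 in EV 3. In PTX4-OE it was at 15.3, 2.32 and 3.06 CPM, so that both number 1 libraries stood apart and number 2 lay with number 3. Its log2 fold change was -2.78 (SE 0.200, edgeR adjusted p = 8.166e-08), with -3.46 in a 6-library fit without PTX4-OE 3 and -2.08 on the log2(TPM + 1) scale. HSPE1, the mitochondrial co-chaperonin, was at 140, 119 and 41.8 CPM in EV and 136, 108 and 46.1 CPM in PTX4-OE. HSP90AA1, the inducible HSP90, was at 1949 and 1884 CPM in EV 1 and PTX4-OE 1 and at 740 and 829 CPM in EV 3 and PTX4-OE 3. These 2 genes fell mainly between numbers 2 and 3, at -1.65 (HSPE1) and -1.29 (HSP90AA1) for number 3 against number 1. HSPA1A and HSPA1B, which are near-identical copies with uncertain counts, did not pass, at -0.38 and 0.11, nor did DNAJB1, their co-chaperone, at 0.08.

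Antioxidant genes of the NRF2 programme were lower too, 26 of 33 called lower and 1 higher, with a median of -0.51. PRDX1, a peroxiredoxin that removes hydrogen peroxide, was at 466 and 460 CPM in number 1 and 166 and 163 CPM in number 3, a log2 fold change of -1.49 (SE 0.065, edgeR adjusted p = 3.993e-09). The metallothionein gene MT2A was at -1.21 and the superoxide dismutase gene SOD1 at -1.12. SLC7A11, the cystine transporter, was the member called higher, at 0.33.

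The interferon response held some of the largest falls. Of 50 genes, 42 were called lower and 3 higher, with a median of -0.84. ISG15, a ubiquitin-like modifier, was at 49.6, 27.8 and 10.7 CPM in EV 1, 2 and 3 and at 43.2, 26.7 and 13.3 CPM in PTX4-OE 1, 2 and 3. The log2 fold change of ISG15 was -1.95 (SE 0.106). OAS3, which makes the second messenger that activates RNase L, was at -1.92 (SE 0.158), and IFIT1, which binds viral RNA, at -1.73 (SE 0.116), all with edgeR adjusted p of 2.505e-07 or less. STAT2, XAF1 and SP100 were called higher, at 0.45, 0.24 and 0.21. STAT2 encodes a subunit of ISGF3, the factor that interferon activates. MX1, RSAD2, GBP2, DTX3L and PLSCR1 did not pass, with log2 fold changes from -0.44 (GBP2) to 0.21 (RSAD2).

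Stretches of 100 bases upstream of the annotated start are shown for 4 interferon and 2 heat shock genes, since the factors that induce these 2 groups are known to bind short promoter motifs. The 6 were chosen among the genes that hold a match, and each stretch was placed around one, so the matches in them follow from that choice. Sequences are from RefSeq on GRCh38.p14, on the strand of the gene. Capitals mark the interferon-stimulated response element, searched as GAAANNGAAA, or the heat shock element, searched as GAANNTTCNNGAA, where N is any base, both on both strands and with overlapping matches kept.
IFI6 (chr1:27672256-27672355, minus strand): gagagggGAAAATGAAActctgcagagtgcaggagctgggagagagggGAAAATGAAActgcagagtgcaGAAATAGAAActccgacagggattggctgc
ISG15 (chr1:1013320-1013419, plus strand): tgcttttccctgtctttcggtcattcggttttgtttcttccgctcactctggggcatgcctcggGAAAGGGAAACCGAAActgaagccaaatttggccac
IFIT1 (chr10:89392450-89392549, plus strand): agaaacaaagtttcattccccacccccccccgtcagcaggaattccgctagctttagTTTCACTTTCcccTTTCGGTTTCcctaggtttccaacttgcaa
HERC5 (chr4:88456975-88457074, plus strand): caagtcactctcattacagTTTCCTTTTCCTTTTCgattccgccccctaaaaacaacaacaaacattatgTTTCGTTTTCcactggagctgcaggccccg
HSPA6 (chr1:161524399-161524498, plus strand): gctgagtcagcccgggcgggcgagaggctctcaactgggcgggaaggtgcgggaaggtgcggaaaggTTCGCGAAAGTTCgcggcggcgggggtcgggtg
HSP90AA1 (chr14:102087100-102087199, minus strand): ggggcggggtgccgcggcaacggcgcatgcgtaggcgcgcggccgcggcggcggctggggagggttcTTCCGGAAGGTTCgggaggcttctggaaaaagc
The interferon element was found 3 times in the IFI6 stretch, 2 times in those of ISG15 and IFIT1 and 3 times in that of HERC5, an interferon-induced ISG15 ligase at a log2 fold change of -1.13. The heat shock element was found 1 time each in HSPA6 and HSP90AA1.

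Over the 250 bases before the start, the interferon element was in 25 of the 40 interferon genes that had a sequence, or 62.5%, and in 371 of 10755 tested protein-coding genes with one, or 3.45%. Among the interferon genes it was in 22 of 33 called lower and in 3 of the 7 others, namely MX1, RSAD2 and PLSCR1. The heat shock element was in 8 of 20 genes of the heat shock list, or 40%, and in 49 of the 10755 genes, or 0.456%. It was in 7 of 14 genes of this list called lower and 1 of the 6 others, HSPA8. A match describes letters in a window and says nothing of a factor bound there.

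Regulators of quiescence were among the groups with more members higher than lower in number 3. Of 35 FOXO, KLF and glucocorticoid-responsive genes, 20 were called higher and 2 lower, with a median log2 fold change of 0.28. TP53INP1, a p53-induced autophagy regulator, was at 1.14 and 0.781 CPM in number 1 and 4.52 and 4.13 CPM in number 3, a log2 fold change of 2.18 (SE 0.254). YPEL5, of the yippee family of small zinc-binding proteins, was at 10.4, 13.4 and 23.5 CPM in EV 1, 2 and 3 and 8.59, 13.6 and 22.6 CPM in PTX4-OE 1, 2 and 3, a log2 fold change of 1.29 (SE 0.099, edgeR adjusted p = 1.505e-07). KLF2, a factor that keeps monocytes and lymphocytes resting, was at 6.14 and 8.26 CPM in number 1 and 20.7 and 14.8 CPM in number 3. In these genes no number 3 library overlapped with number 1. CCNG2 and FOXO3, a cyclin of cell cycle exit and the FOXO factor itself, were at 0.78 and 0.56. FKBP5, a co-chaperone that glucocorticoids induce, was called lower at -0.50, so TSC22D3 and FKBP5 went opposite ways. CITED2 was the other member called lower, at -0.36, and CDKN1A and CDKN1B, which encode the cyclin kinase inhibitors p21 and p27, did not pass, at -0.10 and 0.13.

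Noncoding RNAs leaned strongly to number 3. Among long noncoding RNAs with a mean of at least 1 CPM, 816 of 1761 were called higher, or 46.3%, and 87 were called lower, or 4.94%. Of 12213 protein-coding genes at that level, 21.7% were called higher and 39.8% lower. In a fit on protein-coding genes only, with no minimum of 1 CPM, 3874 of 13412 were called higher and 4079 lower. The 2 fits differ in which genes were normalised together, and the counts also differ in the 1 CPM minimum. The part of each in the smaller skew to lower was not tested. For the same 50 cell cycle genes the median was -0.94 with all gene types and -0.85 with protein-coding genes only. In a list of 27 nuclear and other noncoding RNAs, 14 were called higher and 3 lower, with a median of 0.43. NEAT1, the scaffold of paraspeckles, was at 125, 136 and 219 CPM in EV and 91.3, 156 and 248 CPM in PTX4-OE, a log2 fold change of 1.12. GAS5 and ZFAS1, host transcripts of snoRNAs, were at 0.80 and 0.86, while SNHG3 and SNHG16, also snoRNA hosts, were called lower at -0.69 and -0.57. No source used here says whether the kit kept strand, and reads of antisense or overlapping genes may be assigned to either.

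Among protein-coding genes the calls also varied with transcript length, in the fit that normalised all gene types together. With genes in 5 equal groups by canonical transcript length, the share called lower was 55.1% for the shortest, at 192 to 1856 bases, and 24.2% for the longest, at 5819 bases or more. The share called higher was 11.9% and 35.8%. The median log2 fold change was -0.30 and 0.085 in these groups, and over 5 groups of GC content it stayed between -0.12 and -0.077. With each library's trend on length and GC taken out, the cell cycle list had a median of -0.94, the interferon list -0.82 and the noncoding list 0.45, and 4222 genes were called higher and 5188 lower. RNA integrity was not analysed here, and its part in the length trend was not tested.

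**Figure D2:**
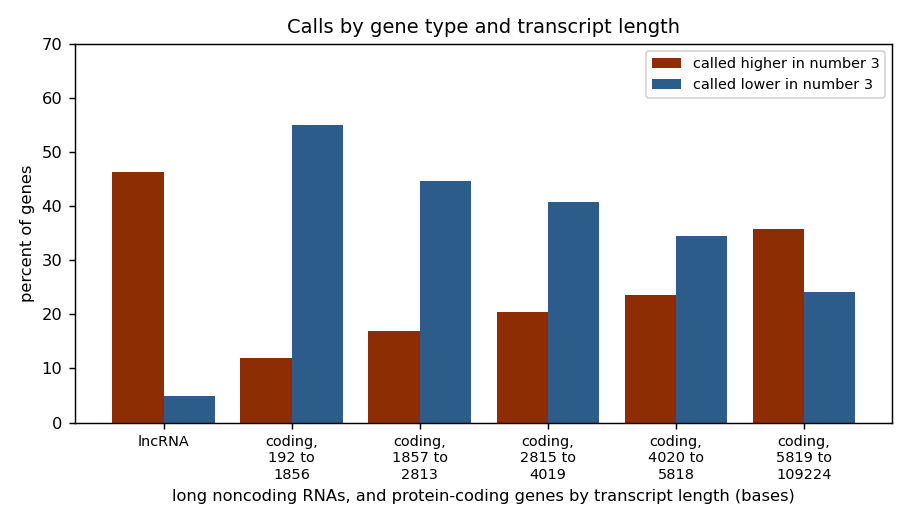
Percent of genes with a mean of at least 1 CPM called higher or lower in number 3, for long noncoding RNAs and for protein-coding genes in 5 equal groups of canonical transcript length in bases. All gene types were normalised together. Calls are mostly upward in long noncoding RNAs (46.3% against 4.94%), and in coding genes the share called lower goes from 55.1% in the shortest to 24.2% in the longest.

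The largest single rises and falls lay partly outside these groups. Among genes at a mean of 5 CPM or more, TNXB, an extracellular matrix protein gene with a near-identical partial copy, had the largest rise, from 1.27 and 0.837 CPM to 8.64 and 10.5 CPM. Its log2 fold change was 3.20 (SE 0.215), or 1.24 on the log2(TPM + 1) scale. SEMA3B, a secreted semaphorin, was at 3.58, 7.76 and 20.5 CPM in EV and 2.99, 7.78 and 18.5 CPM in PTX4-OE, with number 2 between the others in both. The fitted log2 fold change was 2.57 (SE 0.122, edgeR adjusted p = 1.063e-08). UNC5B and NTNG2, a netrin receptor and a netrin-like membrane protein, were at 2.08 and 1.99, and the receptor tyrosine kinase gene LTK at 2.04. Further genes among the 12 largest rises were NEBL, C1QTNF6 and the noncoding RNAs LINC01512, GAS6-AS1, APPAT and RFX3-DT, at between 2.00 and 2.67. On the log2(TPM + 1) scale LINC01512 and NEBL were at 1.96 and 1.28.

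Falls were led by SLPI, an inhibitor of neutrophil elastase and other serine proteases. It was at 17.8, 7.93 and 2.50 CPM in EV and 15.7, 4.60 and 1.63 CPM in PTX4-OE, a log2 fold change of -3.04 (SE 0.149, edgeR adjusted p = 1.28e-08). Of the 12 largest falls, IFI6, ISG15, OAS3, IFITM1, IFIT1 and IFI27 were in the interferon list, and SIGLEC1, a macrophage lectin that interferon also induces, was at -1.93. The others besides HSPA6 were PCED1B-AS1, NT5DC2 and HPDL, at -2.04, -1.70 and -1.67.

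Myeloid genes were found in both directions. Of 14 granule and promyelocyte genes 9 were called lower and 3 higher, with a median of -0.35. PRTN3, proteinase 3 of azurophil granules, was at 1438 and 1402 CPM in number 1 and 564 and 555 CPM in number 3, a log2 fold change of -1.34 (SE 0.078). The 3 called higher were AZU1 and CTSG, other azurophil proteins, at 0.43 and 0.26, and the serine protease gene PRSS57. PRSS57 was at 1.37 to 1.75 over the alternatives run. Genes of the same granule thus moved apart. Of 39 genes of monocyte and macrophage differentiation 19 were called lower and 10 higher, with a median of -0.21. The share called higher is near the 24.8% of all genes tested. The 10 higher became 6 in a 6-library fit without PTX4-OE 3 and 6 in DESeq2, and the median was -0.33 without EV 1. LYZ, lysozyme, was at 48.3 and 61.7 CPM in number 1 and 26.0 and 16.8 CPM in number 3, while CSF3R, the receptor of granulocyte colony-stimulating factor, was at 78.9 and 54.4 CPM against 168 and 137 CPM. Their log2 fold changes were -1.38 and 1.21. Of 26 genes of the MLL fusion programme of THP-1, 12 were called higher and 4 lower, beside 24.8% and 28% of all genes tested. The median was 0.22, and the members ran from -0.56 to 1.09. DESeq2 called 7 of them higher, and 2 were called lower in a 6-library fit without PTX4-OE 1. RUNX2, a runt-family factor, was at 0.89 and MYB, a factor that maintains leukaemic growth, at 0.49.

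**Figure D3:**
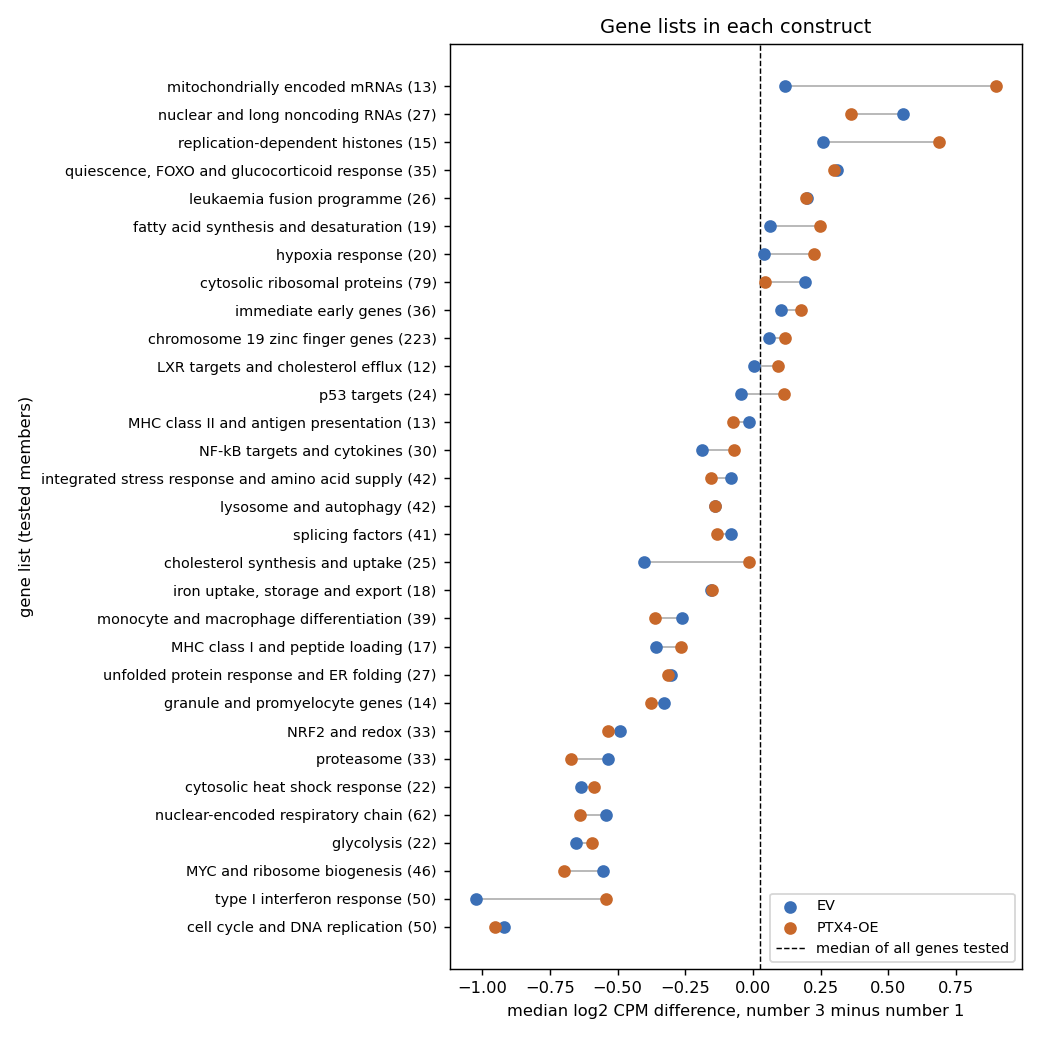
Median log2 CPM difference, number 3 minus number 1, of each gene list in EV (blue) and PTX4-OE (orange), with the number of tested members in parentheses and the median of all genes tested as a dashed line. Cell cycle genes lie at -0.92 and -0.95, and the 2 constructs are far apart for interferon genes and for mitochondrially encoded mRNAs.

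How often number 2 lay between the others varied among the groups. Number 2 shares libraries with each contrast, so the 3 fits are not independent. Number 2 against number 1 gave 1869 genes higher and 1850 lower of 17391 tested (21.4% called), and number 3 against number 2 gave 2999 higher and 3787 lower of 18068 tested (37.6% called). Over all genes tested, number 2 lay between numbers 1 and 3 in both constructs in 45.1%. It did so in 49 of 50 cell cycle genes, 32 of 33 proteasome genes, 43 of 46 genes of MYC and ribosome biogenesis and 54 of 62 respiratory chain genes. It was between them in 32 of 50 interferon genes, 14 of 22 heat shock genes and 11 of 25 genes of cholesterol synthesis and uptake. For cell cycle genes the median log2 fold change was -0.27 for number 2 against number 1, with 42 called lower, and -0.64 for number 3 against number 2, with 47 called lower. Interferon genes had medians of -0.21 and -0.55 in these fits, with 25 and 38 called lower. Mitochondrially encoded mRNAs differed: all 13 were called higher in number 2 against number 1, with a median of 0.64, and the median of number 3 against number 2 was -0.046.

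The difference between numbers was much alike in EV and PTX4-OE. With 1 library for each construct and number, whether it differs by construct cannot be tested, and the values that follow are descriptions. Over the 18130 genes tested, the log2 difference of EV 3 from EV 1 and that of PTX4-OE 3 from PTX4-OE 1 had a Pearson correlation of 0.71 and a Spearman correlation of 0.79 across genes, and 83.8% had the same sign. These differences share no library. Among the 11361 genes with a mean of at least 5 CPM the correlations were both 0.92 and 88.7% had the same sign. PTX4, which was at or near 0 in EV, was left out of the counts that follow. Of the others, 439 differed by more than 1 on the log2 scale in EV, and 438 of them had the same sign in PTX4-OE. Of the 647 that did so in PTX4-OE, 645 had the same sign in EV. A gap of more than 1 between the constructs was seen in 24 of these 11360 genes, or 0.211%.

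**Figure D4:**
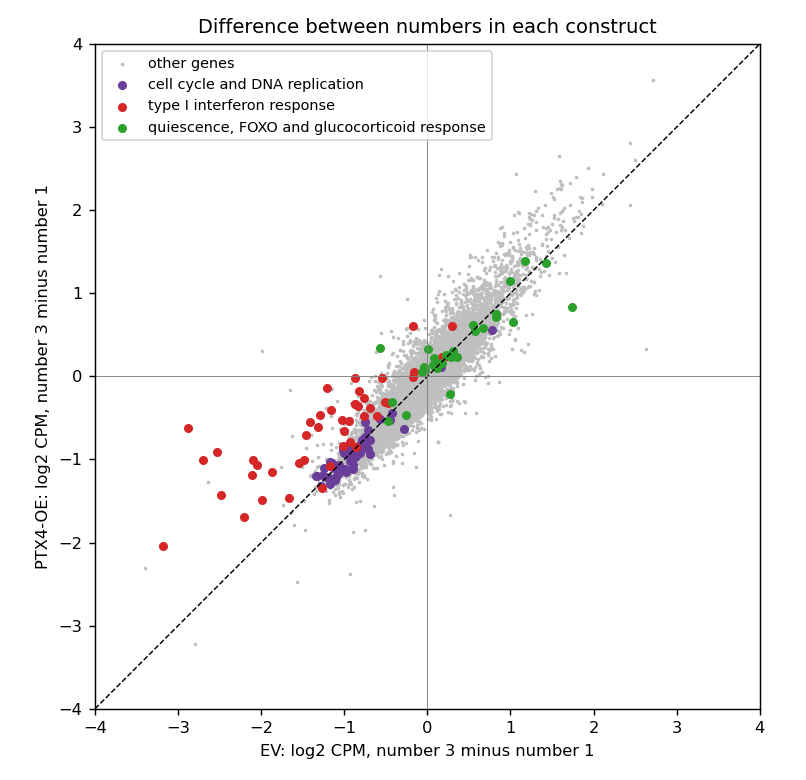
Log2 CPM difference, number 3 minus number 1, in EV (horizontal) and PTX4-OE (vertical) for genes with a mean of at least 5 CPM, PTX4 left out, with each point a gene and the dashed line marking equal differences. Cell cycle genes lie along the line, and most interferon genes lie above it on the falling side.

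Of the 24 genes, 7 were in the interferon list. The median difference of the 50 interferon genes was -1.03 in EV and -0.54 in PTX4-OE, and EV had the more negative difference in 48 of them, where over all genes tested it did so in 47.4%. IFI44L, an interferon-induced cytosolic protein, was at 45.9, 35.0 and 6.17 CPM in EV and 25.9, 29.7 and 16.8 CPM in PTX4-OE. SIGLEC1 was at 72.0, 48.0 and 11.5 CPM in EV and 44.1, 39.2 and 18.2 CPM in PTX4-OE. In both genes the EV library was the higher in number 1 and the lower in number 3. IFI27, an interferon-induced membrane protein, was at 61.8, 61.0 and 10.6 CPM in EV and 33.4, 43.7 and 17.7 CPM in PTX4-OE, and DESeq2 did not call it (adjusted p = 0.0538). Without EV 3, in a 6-library fit, the log2 fold change of IFI27 was -1.03 and that of IFITM1 -1.14, against -1.69 and -1.79 with the 4 libraries. Without PTX4-OE 3 they were -2.42 and -2.59, and SIGLEC1 was at -2.53 against -1.93. GBP1, a guanylate-binding protein at 1.08 and 1.20 CPM in number 1, was one of the 2 members with the larger fall in PTX4-OE. Its counts were 34 in EV 1 and 43 in PTX4-OE 1, but only 4 in EV 3 and 3 in PTX4-OE 3. The constructs can hardly be ranked on such counts.

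**Figure D5:**
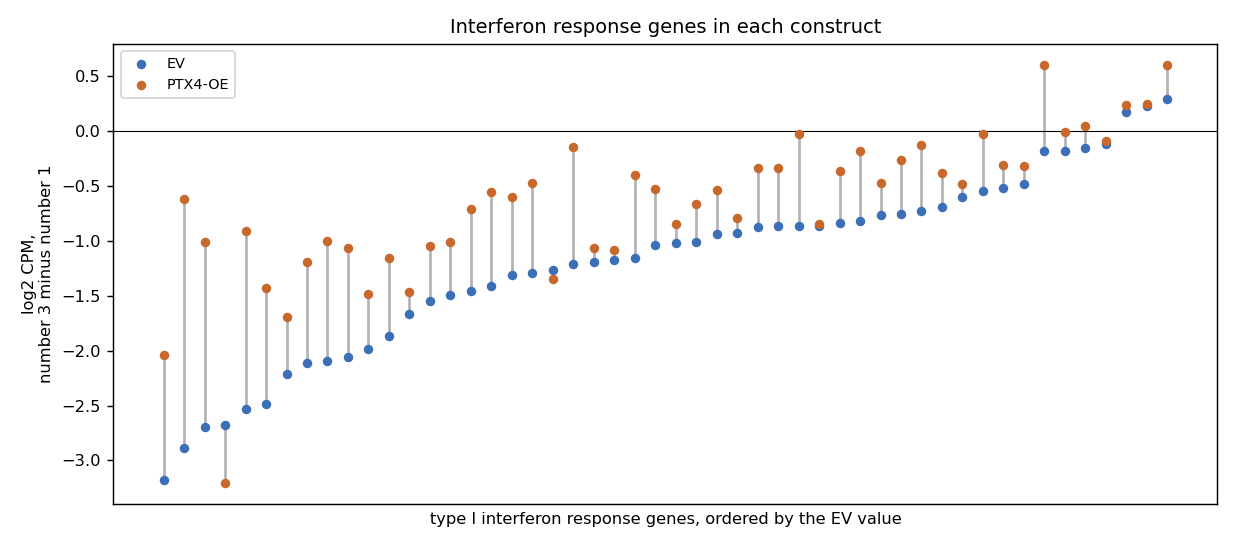
Log2 CPM difference, number 3 minus number 1, of 50 interferon response genes in EV (blue) and PTX4-OE (orange), ordered by the EV value along the horizontal axis, with 1 library for each construct and number. The blue point lies below the orange one in 48 of 50 genes, and most of both lie below 0.

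Other genes parted between the constructs as well. FOSB, an AP-1 subunit of the immediate early response, was at 6.84, 13.5 and 42.5 CPM in EV and 3.32, 6.46 and 4.2 CPM in PTX4-OE. Its log2 fold change of 1.80 rested on the EV libraries: in a 6-library fit without EV 3 it was 0.34 and without EV 1 it was 1.10, and neither passed, nor did DESeq2 call it. GPNMB, a glycoprotein of lysosome-rich macrophages, was at 11.1, 7.62 and 7.43 CPM in EV and 8.73, 6.37 and 20.2 CPM in PTX4-OE, and it was 1 of 2 genes with opposite differences of more than 0.5 in the constructs. The other was FAM156A. Proteasome genes were closer in size but one-sided: the difference was more negative in PTX4-OE in 33 of 33, with medians of -0.53 in EV and -0.67 in PTX4-OE. Other lists leaned the same way. EV had the more negative difference in only 3 of 46 genes of MYC and ribosome biogenesis. It did so in 5 of 62 nuclear respiratory chain genes and 3 of 79 ribosomal protein genes.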

How the data were processed

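Per the labels' protocols, mRNA was enriched with oligo(dT) beads. Alignment by STAR to GRCh38, counting by featureCounts and quality checks by FastQC 0.11.5 are listed in the submitters' processing notes, without settings. The annotation release was not given in the sources used here. For each gene the authors deposited expected counts, not normalized, of which 7.9% are not whole, and TPM, scaled by the authors for length and library size. Identifiers without a symbol held 0.213% to 0.315% of counts. Symbols and coordinates follow GENCODE on GRCh38, and 35 pseudoautosomal pairs were summed.

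Rounded counts were tested with edgeR 4.0.16 in R 4.3.3 (filterByExpr, TMM, quasi-likelihood F test, construct as covariate, Benjamini-Hochberg over all genes tested). Log2 differences within a construct used CPM with a prior count of 2. Alternatives used DESeq2 1.42.0, limma 3.58.1 and mgcv 1.9.3. On simulated counts for 18130 genes, the test recovered 70% of 1.5-fold and 85% of 2-fold changes, with 10 false calls. The simulation changed only a small part of the genes, by the same amount in both constructs, with a single dispersion for all genes. The real contrast differs in these points, so the simulation does not give its rate of false calls. Standard errors rest on variances moderated across genes. Total counts per library are given in the results, and without molecular identifiers a read cannot be taken as a separate molecule.

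Named genes were the 4 lead genes, the 12 largest called rises and falls at a mean of 5 CPM or more with the same direction in both constructs, and up to 4 called members with the largest change in each list. Some genes that this rule names are not reported here. Any other gene named, and the groupings by gene type, length and construct gap, were chosen after their values were seen. The comparison and the gene lists were chosen with earlier results of these data known.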

Additional observations from a re-analysis of the deposited data

Results flagged for a closer look

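The medians of 24 p53 target genes lay on opposite sides of 0 in the constructs, at -0.046 in EV and 0.11 in PTX4-OE for number 3 minus number 1. The difference was not tested. Of the 24, 6 were called higher and 8 lower, beside 24.8% higher and 28% lower over all genes tested. The median over both constructs was -0.0091. The count called lower was 4 in a 6-library fit without PTX4-OE 3, 5 without PTX4-OE 1 and 4 in DESeq2.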

How the results depend on the processing

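Over 16 alternatives, 129 of 153 named genes were called in every one that held them, 24 lost the call in at least 1 and 0 reversed. DESeq2 called fewer genes: 2239 higher in number 3 than in number 1, 725 between numbers 2 and 1 and 3158 between numbers 3 and 2, against 4488, 3719 and 6786 in edgeR. The cause was not tested. Its share of higher calls was 37.5%, against 46.9%. The other alternatives gave 3435 to 4881 genes higher, and all gave 3557 to 5205 lower. The share of higher calls was 54.0% with log2(TPM + 1). Without each library in turn, counts ran from 3435 to 4756 higher and 4009 to 4803 lower. The Pearson correlation between constructs was 0.65 with a prior count of 0.5 and 0.92 over genes of at least 5 CPM, against 0.71. The median of all genes was 0.16 with no filter on low counts, over 32712 genes. Of 37 lists, 5 changed the sign of their median under some alternative: p53 targets, MHC class II, NF-kB targets, the integrated stress response, and T and NK cell markers. The list medians of the cell cycle and interferon groups ran from -0.95 to -0.84 and from -0.97 to -0.60. The offset for length and GC and the fit on protein-coding genes were added after seeing the data. No paired analysis was possible because the replicate number is itself the contrast, and construct is already in the fit.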

Other observations

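Genes of lipid synthesis were mixed. Of 25 genes of cholesterol synthesis and uptake, 12 were called lower and 2 higher, but DESeq2 called 7 lower. In a 6-library fit without PTX4-OE 3, 17 were called lower and 0 higher, and without EV 1 or EV 3, 8 were called lower and 4 higher. The median was -0.16, and it was -0.37 without PTX4-OE 3 and -0.0059 without EV 3. FDPS, farnesyl diphosphate synthase, was at 158 and 169 CPM in number 1 and 83.2 and 93.4 CPM in number 3, a log2 fold change of -0.89. The list's median was -0.40 in EV and -0.015 in PTX4-OE.

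Over all genes tested, 24.8% were called higher and 28% lower. Of 20 hypoxia genes 7 were called higher and 4 lower, with a median of 0.16. DESeq2 called 4 higher, and without PTX4-OE 3 the median was 0.057. VEGFA, the endothelial growth factor, was at 266, 308 and 623 CPM in EV and 277, 381 and 653 CPM in PTX4-OE, a log2 fold change of 1.23 (SE 0.068). The hypoxia genes HILPDA, NDRG1 and FAM162A were called lower, at -0.49, -0.47 and -0.45. HILPDA lost the call in DESeq2 and with log2(TPM + 1). Among 27 genes of endoplasmic reticulum folding, 14 were called lower and 6 higher, and the count called higher was 3 in DESeq2 and 3 without PTX4-OE 3. The chaperones CALR and PDIA4 were at -0.86 and -0.85, while ERN1, the kinase that senses unfolded proteins, was at 20.3 and 20.7 CPM in number 1 and 52.0 and 55.4 CPM in number 3, a log2 fold change of 1.39. In antigen presentation by MHC class I, 11 of 17 genes were called lower and 2 higher. B2M, TAP1 and PSMB9 were at -0.50, -0.56 and -0.53.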
